A study of Mus musculus with 8 samples.

Results

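The NAD synthesis enzymes were described here as 10 genes (Afmid, Kmo, Kynu, Haao, Acmsd, Qprt, Naprt, Nadsyn1, Nampt and Nmrk1) out of 34745 genes in a table of RNA sequencing of mouse kidney. Members were taken by gene symbol, each symbol matched 1 entry of the table, and all 10 had enough counts to be tested. Kidneys were from wild-type mice at day 14 and fell into 3 groups: uIRI with transplantation of MSCs (uIRI+MSC, n = 3), uIRI alone (n = 3) and sham operation (n = 2). In kidney research uIRI usually stands for ischemia-reperfusion injury of a single kidney, and MSC for a mesenchymal stem (stromal) cell. The labels spell out neither term, and they do not give the strain, sex and age of the mice and the source, dose and timing of the cells. Whether each library is from its own mouse is not stated, so the p-values measure only the spread between these libraries.

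NAD, the redox carrier of respiration and the substrate of sirtuins, PARPs and NAD hydrolases, is made by 3 routes. In the de novo route tryptophan is opened by a dioxygenase, and the formamidase AFMID, the monooxygenase KMO, the kynureninase KYNU and the dioxygenase HAAO lead to an unstable semialdehyde. That semialdehyde either closes by itself to quinolinate, which QPRT carries into the NAD pathway, or is removed by the decarboxylase ACMSD. In the Preiss-Handler route NAPRT converts nicotinate to the mononucleotide that QPRT also makes, and NADSYN1 performs the closing amidation. In the salvage route NAMPT recycles nicotinamide, the rate-limiting step in most tissues, and NMRK1 phosphorylates nicotinamide riboside. Liver and the proximal tubule of the kidney are the main sites of the de novo route.

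Libraries held 11.6 to 24.3 times 1e6 counts. Levels below are CPM (counts per 1e6 counts, scaled between libraries by TMM), changes are log2 fold changes with SE from edgeR's quasi-likelihood test, and a gene was called at a Benjamini-Hochberg adjusted p below 0.05 over all 16576 genes tested. Scaling by library size alone moved the median change of all genes to 0.73 for uIRI against sham (0.06 under TMM), to -0.16 for uIRI+MSC against uIRI (-0.01 under TMM) and to 0.55 for uIRI+MSC against sham (0.03 under TMM). Changes are therefore relative to the TMM scaling. Summed over 12 proximal tubule marker genes, the level was 7340, 6040 and 5710 CPM in uIRI+MSC 1, 2 and 3, 1000 to 3630 CPM in uIRI with uIRI 1 lowest, and 21600 and 20300 CPM in sham 1 and 2. Genes of mitochondrial DNA took 6.07, 6.24 and 11.3% of counts in uIRI+MSC 1, 2 and 3, 3.49 to 4.84% in uIRI and 14.2% in both sham libraries. The part of this share in the results was not tested. In bulk tissue, fewer cells of a type and less RNA per cell cannot be told apart.

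RefSeq promoter windows (GRCm38.p6, 250 bases before to 50 after the annotated start) are described for 7 of the 10 genes. Of these, 3 are shown because they run from few to many CG pairs, with each CG pair in capitals: Haao (chr17:83846741-83847040, minus strand), Qprt (chr7:127121980-127122279, minus strand) and Nampt (chr12:32820085-32820384, plus strand).
Haao: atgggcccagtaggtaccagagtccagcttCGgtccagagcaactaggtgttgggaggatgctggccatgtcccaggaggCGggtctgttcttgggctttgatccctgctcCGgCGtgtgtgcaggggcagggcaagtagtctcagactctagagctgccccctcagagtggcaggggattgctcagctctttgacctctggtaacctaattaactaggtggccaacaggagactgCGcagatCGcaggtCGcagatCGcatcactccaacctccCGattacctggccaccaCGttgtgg
Qprt: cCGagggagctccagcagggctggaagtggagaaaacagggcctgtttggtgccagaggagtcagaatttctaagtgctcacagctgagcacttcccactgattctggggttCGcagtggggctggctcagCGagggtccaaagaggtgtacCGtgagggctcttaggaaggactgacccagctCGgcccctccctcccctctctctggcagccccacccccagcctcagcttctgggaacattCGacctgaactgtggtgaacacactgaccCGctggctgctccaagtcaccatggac
Nampt: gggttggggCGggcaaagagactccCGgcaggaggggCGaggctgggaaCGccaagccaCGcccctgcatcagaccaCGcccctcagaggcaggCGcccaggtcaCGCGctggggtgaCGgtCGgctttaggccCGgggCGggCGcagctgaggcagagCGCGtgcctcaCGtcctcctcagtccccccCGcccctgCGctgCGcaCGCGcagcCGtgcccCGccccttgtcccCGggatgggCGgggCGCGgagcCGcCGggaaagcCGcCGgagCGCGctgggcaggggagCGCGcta
CG pairs numbered 7 in the Qprt window, 7 in Kmo, 10 in Haao and 18 in Afmid. They numbered 23 in Nmrk1, 27 in Nadsyn1 and 36 in Nampt. The 4 windows of the de novo route thus held fewer CG pairs than those of the other 3 genes, against a median of 7 over 32851 windows. The window of Kmo lies 11812 bases from the start of Kmo in the deposited table. A search of both strands for 15 strings found 1 match in the 7 windows, GTTAAT of HNF1 sites in the Haao window, a string in 7.1% of all windows. The others were TCAAGGTCA and AAGGTCA (ERR and other nuclear receptors), CAAAGTCCA and CAAAGGTCA (HNF4), CACGTG (E-box), TATAAA, TTGCGCAA (C/EBP), and by name NRF1, NF-kB, a long and a short HNF1 palindrome, a pair of DR1 forms and IR1. Several of these overlap each other, and the 15 strings stood in 0.00913 to 13.6% of all windows. A match is a string of letters in a window and no measure of binding.

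The comparison of uIRI with sham asks how injury had changed the genes by day 14. All 10 genes fell in uIRI kidney, with a median change of -1.84. Across all genes tested 26.3% were called lower and 54.6% were called in either direction, and the median was 0.06. The genes of the de novo route and its side branch changed by -3.61 to -1.63 (6 genes), and those of the Preiss-Handler and salvage routes by -1.38 to -1.05 (4 genes). No test of the difference between the routes was made. The 12 proximal tubule marker genes fell as well, with a median of -3.11.

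**Figure D1:**
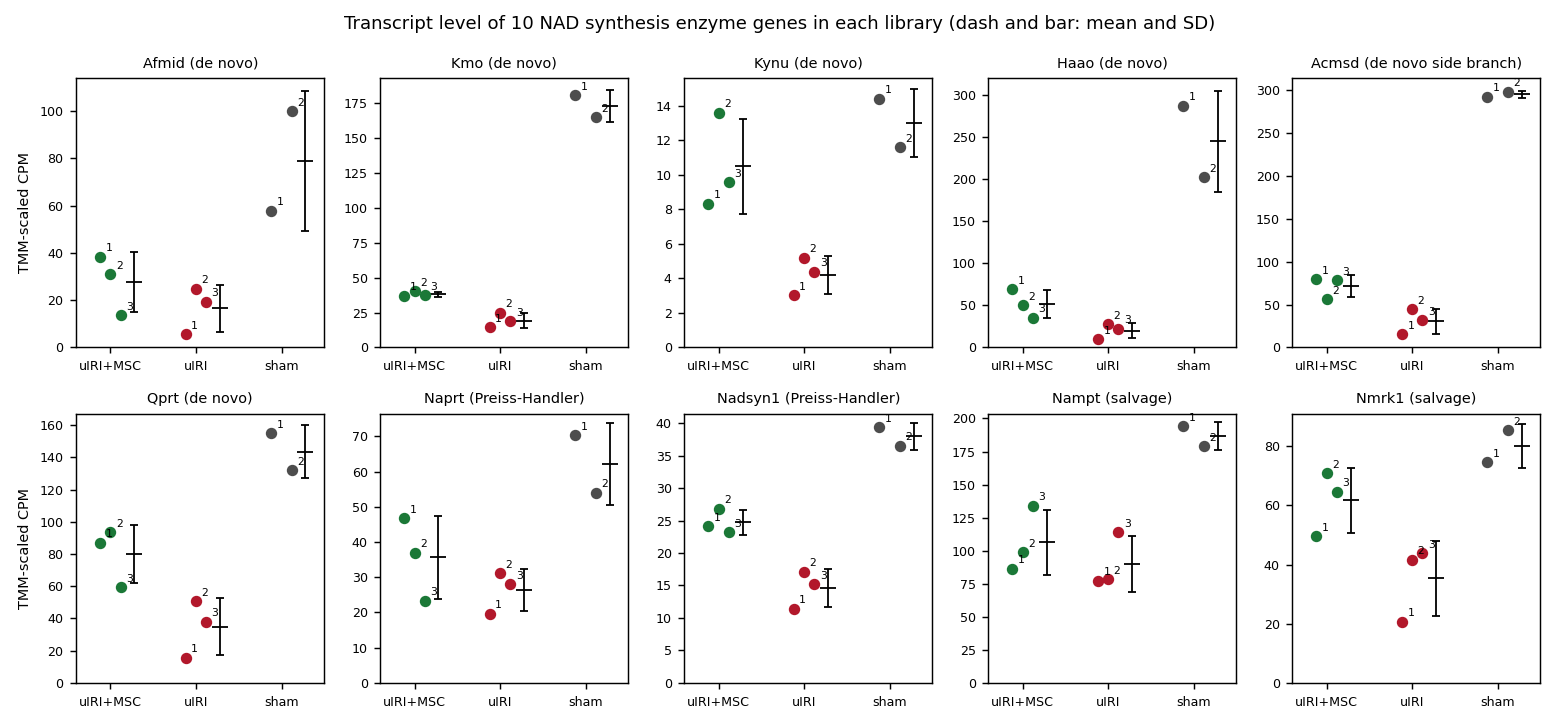
Level of the 10 genes in TMM-scaled CPM on a linear axis in each library of uIRI+MSC, uIRI and sham. Points carry the replicate number, and the dash and bar give the mean and SD (n = 3, 3 and 2). Sham libraries stand above uIRI libraries for each gene, and uIRI 1 is the lowest library of all for each gene.

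Haao (ENSMUSG00000000673, chr17:83831356-83846790, minus strand), whose enzyme opens the ring of 3-hydroxyanthranilate, had the largest fall of the 10. It stood at 69.1, 50.5 and 35.3 CPM in uIRI+MSC 1, 2 and 3, at 9.96, 27.7 and 22.5 CPM in uIRI 1, 2 and 3, and at 287 and 202 CPM in sham 1 and 2. Both sham libraries were far above all others, and the 3 groups did not overlap. The share of all genes tested whose groups stood apart in this way is not given here. The lack of overlap is therefore description only, for Haao and wherever groups of libraries are said to stand apart. The change in uIRI against sham was -3.61 ± 0.43 (adjusted p = 0.000212 by edgeR), a 12.2-fold lower level. Against sham, uIRI+MSC was lower by -2.24 ± 0.41 (adjusted p = 0.00305 by edgeR).

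Acmsd (ENSMUSG00000026348, chr1:127729413-127767978, plus strand), which draws the semialdehyde away from NAD, followed a like course. Its level was 79.6, 56.5 and 78.2 CPM in uIRI+MSC, 15.5, 44.9 and 31.5 CPM in uIRI and 292 and 298 CPM in sham. The groups did not overlap. The change was -3.27 ± 0.37 in uIRI against sham (adjusted p = 0.00018) and -2.04 ± 0.36 in uIRI+MSC against sham (adjusted p = 0.00259, both by edgeR). An antisense gene that shares 94 exon bases with Acmsd in GENCODE had at most 0.168 CPM in any library.

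Kmo (ENSMUSG00000039783, chr1:175620381-175662116, plus strand) encodes the mitochondrial outer membrane enzyme that hydroxylates kynurenine. It stood at 37.0, 40.2 and 37.4 CPM in uIRI+MSC, 14.4, 24.8 and 18.7 CPM in uIRI and 181 and 165 CPM in sham. Libraries lay close together in uIRI+MSC and in sham and less so in uIRI, and the groups did not overlap. The change was -3.16 ± 0.21 in uIRI against sham (adjusted p = 2.85e-05) and -2.18 ± 0.20 in uIRI+MSC against sham (adjusted p = 0.000163, both by edgeR). The span of Kmo overlaps that of Fh1, a gene on the other strand that was also lower in uIRI (-1.84 ± 0.19, adjusted p = 0.000126 by edgeR), by 5255 bases, of which 0 are exonic in both genes.

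Qprt (ENSMUSG00000030674, chr7:127107114-127122226, minus strand), the entry of quinolinate into NAD synthesis, had levels of 86.9, 93.4 and 59.4 CPM in uIRI+MSC, 15.6, 50.7 and 38.0 CPM in uIRI and 155 and 132 CPM in sham. The groups did not overlap, and uIRI 1 was the lowest library, as it was for the summed proximal tubule markers. The change of Qprt was -2.05 ± 0.41 in uIRI against sham (4.13-fold lower, adjusted p = 0.00292 by edgeR). In uIRI+MSC against sham Qprt did not pass (-0.85 ± 0.41, adjusted p = 0.125 by edgeR).

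Kynu (ENSMUSG00000026866, chr2:43555329-43682715, plus strand), which cleaves 3-hydroxykynurenine, had the lowest counts of the 10 genes. It stood at 8.33, 13.6 and 9.57 CPM in uIRI+MSC, 3.03, 5.20 and 4.38 CPM in uIRI and 14.4 and 11.6 CPM in sham. All uIRI libraries were below the rest, while uIRI+MSC and sham overlapped. The change was -1.63 ± 0.30 in uIRI against sham (adjusted p = 0.00181) and -0.31 ± 0.30 in uIRI+MSC against sham (adjusted p = 0.431, both by edgeR).

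Afmid (ENSMUSG00000017718, chr11:117825924-117839908, plus strand) encodes the formamidase that releases kynurenine. It was the most uneven of the 10 within groups, at 38.5, 31.1 and 13.7 CPM in uIRI+MSC, 5.58, 24.9 and 19.4 CPM in uIRI and 57.9 and 100 CPM in sham. In uIRI against sham it changed by -2.25 ± 0.59 (adjusted p = 0.0115), and in uIRI+MSC against sham by -1.50 ± 0.59 (adjusted p = 0.0684, both by edgeR). Its span overlaps that of Gm20708 on the same strand by 13981 bases, and the exons of both share 1566 of the 3539 exon bases of Afmid in GENCODE. Gm20708 held 1.81, 4.81 and 61.3% of the counts of the pair in uIRI+MSC 1, 2 and 3, 60.9, 2.16 and 2.36% in uIRI 1, 2 and 3, and 54.8 and 0.456% in sham 1 and 2. In 1 library of each group Gm20708 thus held more counts than Afmid, and these 3 libraries were the lowest of their groups for Afmid.

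**Figure D2:**
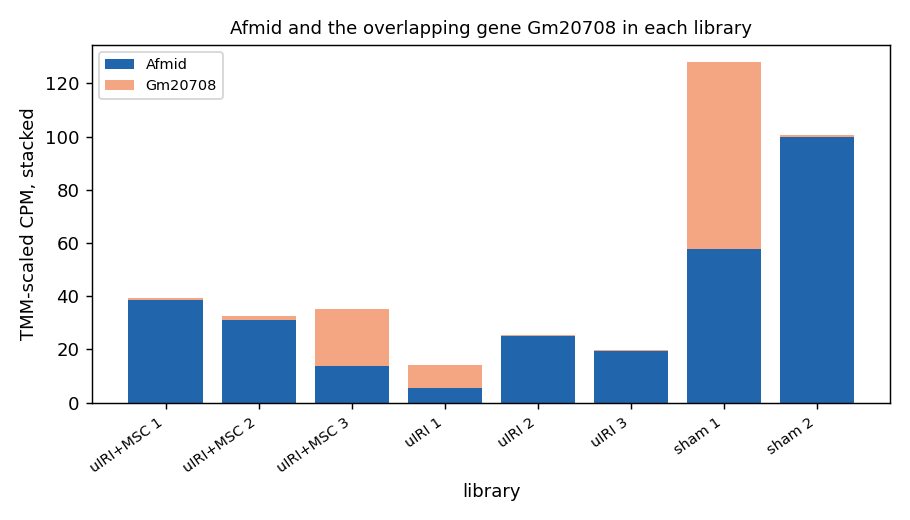
Stacked level of Afmid and Gm20708 in TMM-scaled CPM in each library of uIRI+MSC, uIRI and sham. In uIRI+MSC 3, uIRI 1 and sham 1 more counts stand on Gm20708 than on Afmid, and the stacked heights of the 3 groups do not overlap.

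Summed, the pair gave 39.2, 32.7 and 35.3 CPM in uIRI+MSC, 14.3, 25.5 and 19.9 CPM in uIRI and 128 and 101 CPM in sham. The groups did not overlap, and the mean and SD became 35.7 ± 3.32 in uIRI+MSC, 19.9 ± 5.59 in uIRI and 115 ± 19.3 in sham, in place of 27.8 ± 12.8, 16.6 ± 9.97 and 79.1 ± 30.1 for Afmid alone. When the counts were summed before the fit, a choice made after seeing the data, the change was -2.53 ± 0.23 in uIRI against sham (adjusted p = 7.23e-05) and -1.68 ± 0.23 in uIRI+MSC against sham (adjusted p = 0.000764, both by edgeR). The sum did not pass in uIRI+MSC against uIRI (0.85 ± 0.21, adjusted p = 0.114 by edgeR). The sources used here do not say how reads shared by both genes were counted. Gm20708 starts 16256 bases upstream of Afmid, so its counts need not all come from Afmid transcript. The thymidine kinase gene Tk1, which shares 83 exon bases with Afmid on the other strand, stood at 9.32 to 19.9 CPM in uIRI+MSC, 12.2 to 13.0 CPM in uIRI and 5.71 and 11.7 CPM in sham.

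Of the Preiss-Handler genes, Nadsyn1 (ENSMUSG00000031090, chr7:143795584-143822849, minus strand) had 24.1, 26.8 and 23.2 CPM in uIRI+MSC, 11.4, 17.1 and 15.2 CPM in uIRI and 39.4 and 36.5 CPM in sham. The groups did not overlap. It changed by -1.38 ± 0.18 in uIRI against sham (adjusted p = 0.000348) and by -0.62 ± 0.18 in uIRI+MSC against sham (adjusted p = 0.0238, both by edgeR). Naprt (ENSMUSG00000022574, chr15:75890964-75894481, minus strand) stood at 46.8, 37.0 and 23.3 CPM in uIRI+MSC, 19.6, 31.2 and 28 CPM in uIRI and 70.3 and 54.0 CPM in sham. Here uIRI+MSC 3 lay among the uIRI libraries. Naprt changed by -1.24 ± 0.29 in uIRI against sham (adjusted p = 0.00701 by edgeR), a call lost without sham 1 (-1.02, adjusted p = 0.0687).

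Of the salvage genes, Nampt (ENSMUSG00000020572, chr12:32820335-32853369, plus strand) had the smallest fall of the 10. It stood at 86.4, 98.7 and 134 CPM in uIRI+MSC, 77.3, 78.5 and 114 CPM in uIRI and 194 and 179 CPM in sham. Both injured groups lay below sham and overlapped each other. The change was -1.05 ± 0.23 in uIRI against sham (2.07-fold lower, adjusted p = 0.00451) and -0.81 ± 0.23 in uIRI+MSC against sham (adjusted p = 0.0205, both by edgeR). Nmrk1 (ENSMUSG00000037847, chr19:18631950-18652194, plus strand) stood at 49.6, 70.8 and 64.7 CPM in uIRI+MSC, 20.7, 41.6 and 43.8 CPM in uIRI and 74.7 and 85.4 CPM in sham. It changed by -1.18 ± 0.30 in uIRI against sham (adjusted p = 0.00929) and by -0.38 ± 0.30 in uIRI+MSC against sham (adjusted p = 0.338, both by edgeR). Genes whose starts lie close by were Dhcr7, 296 bases from the start of Nadsyn1 and also lower (-0.72 ± 0.12, adjusted p = 0.000961 by edgeR), and Ostf1, 161 bases from that of Nmrk1 and without a call (0.07 ± 0.14, adjusted p = 0.703 by edgeR). Gdap10 overlaps the span of Nampt by 5033 bases with no shared exon, and it did not pass (-0.17 ± 0.42, adjusted p = 0.756 by edgeR).

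These falls rest on the scaling for the genes with the smaller changes. With library size alone all 10 changes in uIRI against sham kept their sign and 7 passed as lower. Under that scaling 1989 of all 16576 genes were called lower, against 4361 under TMM. Naprt (-0.58, adjusted p = 0.102), Nampt (-0.38, adjusted p = 0.147) and Nmrk1 (-0.53, adjusted p = 0.129, all by edgeR) lost their calls. Leaving out sham 2 ended the calls of Afmid (-1.77, adjusted p = 0.0842) and Nmrk1 (-1.06, adjusted p = 0.0619).

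The comparison of uIRI+MSC with uIRI asks whether the transplanted cells had altered the genes in injured kidney. None of the 10 genes passed edgeR, and 0% of all genes tested did. All 10 had higher means in uIRI+MSC, with a median change of 0.89 against -0.01 over all genes, and 7 had an unadjusted p under 0.05, as did 3418 genes in all. The values were 1.37 ± 0.38 for Haao (adjusted p = 0.124), 1.32 ± 0.27 for Kynu (0.111), 1.22 ± 0.33 for Acmsd (0.123), 1.20 ± 0.37 for Qprt (0.139) and 0.99 ± 0.19 for Kmo (0.111). They were 0.80 ± 0.27 for Nmrk1 (0.160), 0.76 ± 0.17 for Nadsyn1 (0.111), 0.75 ± 0.54 for Afmid (0.463), 0.45 ± 0.27 for Naprt (0.380) and 0.24 ± 0.21 for Nampt (0.551). Libraries of the 2 groups overlapped in Afmid, Naprt and Nampt and not in the others. The share of all genes tested whose libraries stood apart in this way is not given here, so the separation is description only.

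The tools differed in this comparison. DESeq2 called 6 of the 10 genes higher in uIRI+MSC, namely Kmo (0.97, adjusted p = 0.00111), Kynu (1.3, adjusted p = 0.00143), Nadsyn1 (0.74, adjusted p = 0.00659), Haao (1.35, adjusted p = 0.0108), Acmsd (1.20, adjusted p = 0.011) and Qprt (1.18, adjusted p = 0.0271). Of the 15281 genes to which it gave an adjusted p, it called 5.2% higher and 8.93% in either direction, a total of 1364 genes. By limma-voom the count was 0 for the 10 genes and for all genes. The proximal tubule markers stood higher in the same libraries, with a median of 1.39 and 0 of 12 called by edgeR. The summed macrophage markers were 1300 to 1470 CPM in uIRI+MSC and 1960 to 2710 CPM in uIRI. The part of cell composition in these values was not tested.

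**Figure D3:**
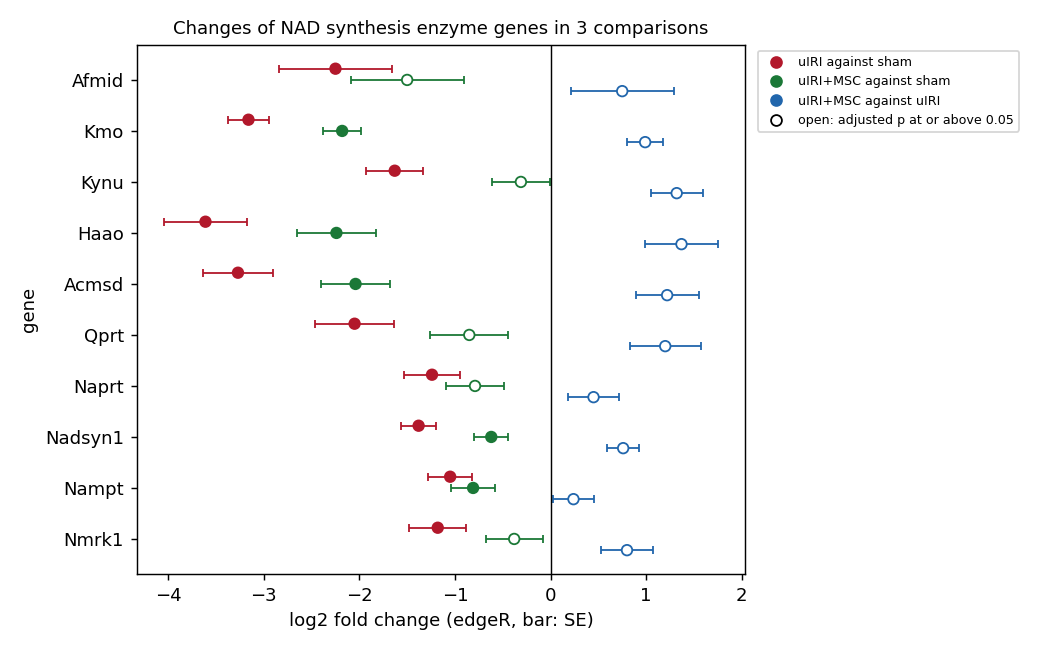
Log2 fold change with SE (edgeR) of each gene in uIRI against sham, uIRI+MSC against sham and uIRI+MSC against uIRI. Filled points passed at an adjusted p below 0.05, as all 10 did in uIRI against sham, 5 in uIRI+MSC against sham and none in uIRI+MSC against uIRI.

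The comparison of uIRI+MSC with sham asks how far the treated kidneys stood from uninjured ones. Of the 10 genes 5 were lower (Haao, Kmo, Acmsd, Nampt and Nadsyn1), with 20.3% of all genes called lower and 42.4% called in either direction. The median of the 10 was -0.83 against 0.03 over all genes. The other genes did not pass, Naprt being at -0.79 ± 0.30 (adjusted p = 0.0583 by edgeR). This comparison shares its libraries with those above. With library size alone 3 of the 10 passed, beside 1352 of all 16576 genes called lower under that scaling. Kynu and Nmrk1 turned to 0.22 and 0.13 there. Nadsyn1 lost its call without uIRI+MSC 1, without uIRI+MSC 3, without sham 1 or without sham 2, and Nampt without uIRI+MSC 1, uIRI+MSC 2, sham 1 or sham 2, with adjusted p of 0.0589 to 0.161. Without uIRI 1, which enters this comparison only through the shared spread, 8 passed.

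Per length of transcript, the order of the genes differed between groups. In FPKM (counts per length and library size, not TMM-scaled) sham kidney had Haao at 146 ± 27.6, Acmsd at 76.7 ± 5.41, Qprt at 35 ± 2.02 and Nampt at 30.1 ± 0.0667 (SD, n = 2). Below these came Naprt, Kmo, Nmrk1, Afmid, Nadsyn1 and Kynu, the last at 1.39 ± 0.131, and only Nmrk1 and Afmid overlapped among neighbours in the order. In uIRI kidney Nampt came top at 23.1 ± 5.15, followed by Haao at 18.9 ± 8.08, Naprt at 16.2 ± 3.11, Qprt at 13.3 ± 6.43 and Acmsd at 12.5 ± 5.61 (SD, n = 3). There all neighbours overlapped except Kmo and Kynu. In uIRI+MSC kidney Haao came top again at 44.5 ± 15.0, then Qprt at 28 ± 6.81, Acmsd at 26.5 ± 4.48 and Nampt at 24.5 ± 5.21 (SD, n = 3), all of which overlapped.

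At the branch point, the log2 ratio of Acmsd to Qprt (FPKM) was -0.04, -0.64 and 0.49 in uIRI+MSC 1, 2 and 3, 0.08, -0.09 and -0.18 in uIRI 1, 2 and 3, and 1.00 and 1.26 in sham 1 and 2. Acmsd was thus 2.19 times Qprt on average in sham, and in the injured libraries it lay on both sides of Qprt, with the widest spread in uIRI+MSC. The ratio of Haao to Qprt averaged 0.64 ± 0.29 in uIRI+MSC, 0.54 ± 0.11 in uIRI and 2.05 ± 0.19 in sham. In both ratios sham stood clear of the injured groups, which overlapped each other. The ratio of Nampt to Qprt averaged -0.18 ± 0.66 in uIRI+MSC, 0.91 ± 0.84 in uIRI and -0.22 ± 0.09 in sham, with uIRI 1 highest at 1.71.

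**Figure D4:**
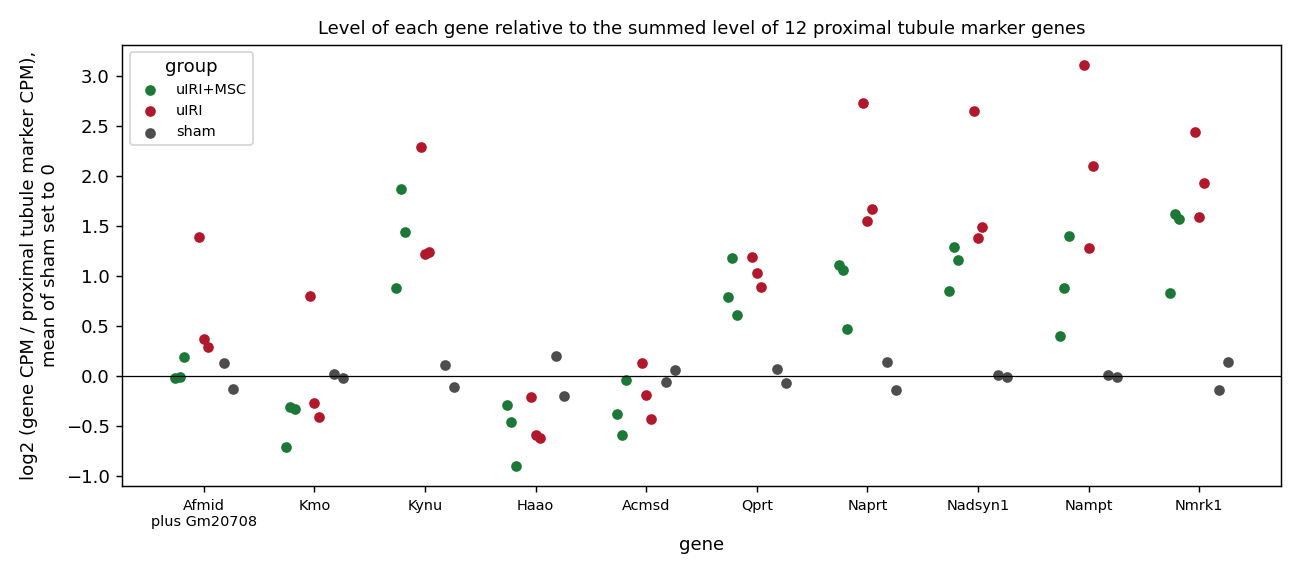
Log2 of the ratio of each gene's CPM to the summed CPM of 12 proximal tubule marker genes, with the mean of the sham libraries set to 0, for each library of uIRI+MSC, uIRI and sham. Afmid is shown as its sum with Gm20708. Haao lies below 0 in all injured libraries and in sham 2. Qprt, Kynu, Naprt, Nadsyn1, Nampt and Nmrk1 lie above 0 in all injured libraries. Any gene that fell less than the marker sum lies above 0.

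The levels of the genes were also set against the summed proximal tubule markers. The sum is led by Slc34a1 and Lrp2, with 7350 and 4170 CPM on average in sham, and the 12 markers themselves changed by -5.13 (Slc7a13) to -1.79 (Slc5a12) in uIRI against sham. The changes of all 10 genes in uIRI against sham, -3.61 to -1.05, thus lay in part within the range of the markers. Haao averaged -0.55 ± 0.31 in uIRI+MSC and -0.47 ± 0.23 in uIRI on the log2 scale relative to the mean of sham, Acmsd -0.34 ± 0.28 in uIRI+MSC and -0.16 ± 0.28 in uIRI, and Kmo -0.45 ± 0.22 in uIRI+MSC and 0.04 ± 0.66 in uIRI. Haao was below the mean of sham in all injured libraries, while Acmsd and Kmo lay on both sides of it in uIRI. For Haao sham 1 and 2 were themselves at 0.20 and -0.20, and uIRI 1 at -0.21 and uIRI+MSC 1 at -0.29 lay close to sham 2. Qprt averaged 0.86 ± 0.29 in uIRI+MSC and 1.04 ± 0.15 in uIRI, Kynu 1.40 ± 0.50 in uIRI+MSC and 1.58 ± 0.61 in uIRI, and Nampt 0.89 ± 0.50 in uIRI+MSC and 2.16 ± 0.92 in uIRI. The sum of Afmid and Gm20708 averaged 0.05 ± 0.12 in uIRI+MSC and 0.68 ± 0.62 in uIRI. These are ratios within a library and show unequal change only. The marker sum was 21600 and 20300 CPM in sham, 1000 to 3630 CPM in uIRI and 5710 to 7340 CPM in uIRI+MSC. Any gene that fell less than this sum therefore lies above 0, and the share of all genes that do so is not given here.

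Markers of other cell types did not all move one way. Their counts stand beside 26.3% of all genes called lower and 28.3% called higher in uIRI against sham. In uIRI+MSC against sham 20.3% of all genes were called lower. All 10 macrophage markers were higher in uIRI than in sham, with sums of 1960 to 2710 CPM in uIRI against 203 and 248 CPM in sham, while Kmo, Kynu and Nampt, which macrophages also express, were lower. Of 7 hepatocyte markers 4 were tested and 3 of these were lower in uIRI than in sham, the same direction as the 10 genes (Alb -4.10 ± 0.61, Apoa2 -2.35 ± 0.42 and Serpina1c -4.90 ± 0.61). Each of the 3 was also lower in uIRI+MSC than in sham, and each averaged at most 7.41 CPM in any group. Their sum with the rest was 73.7 to 156 CPM in uIRI+MSC, 5.85 to 50.9 CPM in uIRI and 52.9 and 80.2 CPM in sham. Most of it was the fibrinogen gene Fga, which averaged 111 CPM in uIRI+MSC, 23.9 CPM in uIRI and 53.5 CPM in sham and did not pass in uIRI against sham (-1.16 ± 0.72, adjusted p = 0.201 by edgeR). Hamp had 0 counts in every library. The sum of 7 fibroblast markers was 2130 to 3890 CPM in uIRI+MSC, 3550 to 8370 CPM in uIRI and 308 and 427 CPM in sham. That of 6 neutrophil markers was 19.1 to 35.1 CPM in uIRI+MSC, 34.2 to 46.5 CPM in uIRI and 1.36 and 4.05 CPM in sham. That of 6 endothelial markers was 366 to 473 CPM in uIRI+MSC, 430 to 467 CPM in uIRI and 423 and 509 CPM in sham. Of the 6, 1 was lower in uIRI than in sham, Kdr (-0.54 ± 0.14, adjusted p = 0.0115 by edgeR), a share that does not exceed that of all genes. The part of these cells in the levels of the 10 genes was not tested.

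By root mean square difference of centred log2 CPM over the 8 libraries, the gene nearest to Haao among 8230 compared was Slc22a18 (0.13), and that nearest to Kmo was Abat (0.11), the GABA transaminase gene. Nearest to Acmsd were Adhfe1 (0.14), Macrod2 (0.14) and A1cf (0.15), and nearest to Qprt were Asb9 (0.13), Ndrg1 (0.16) and Adra2b (0.16). Afmid lay nearest to the glucose transporter gene Slc5a2 (0.27), Naprt to Abhd14a (0.07), Nadsyn1 to Sel1l3 (0.08), Nampt to Nudt4 (0.09), Nmrk1 to Epb41l3 (0.14) and Kynu to Mia2 (0.20). The Afmid profile is of its own counts and so carries the uneven split with Gm20708. The likeness of the summed pair was not measured. The median distance over all genes compared was 0.54 for Nampt and 1.47 for Haao, the ends of the range over the 10.

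Upstream of the 10 genes, all 5 tested genes of kynurenine entry and side branches were lower in uIRI than in sham, with a median of -3.02, beside 26.3% of all genes called lower. The dioxygenase gene Ido2 stood at 1.64 to 2.10 CPM in uIRI+MSC, 0.135 to 0.753 CPM in uIRI and 34 and 17.2 CPM in sham (-5.85 ± 0.53 in uIRI against sham, adjusted p = 7.24e-05 by edgeR, and -5.25 without sham 1). The other dioxygenase genes were barely detected, Ido1 with 27 counts and Tdo2 with 5 counts over all libraries. Among the aminotransferase genes that draw kynurenine to kynurenate, Aadat changed by -4.35 ± 0.52, Kyat3 by -3.02 ± 0.17 and Kyat1 by -1.92 ± 0.23 (adjusted p at most 0.000222 by edgeR). The table lists Kyat3 and Kyat1 by their older symbols Ccbl2 and Ccbl1. In uIRI+MSC against sham these 5 genes were lower too, beside 20.3% of all genes, and 4 to 5 when each library was left out in turn, Kyat1 losing its call without sham 1.

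Of 7 genes for uptake of precursors 4 were lower in uIRI than in sham and 2 higher, beside 26.3% of all genes called lower and 28.3% called higher. Slc22a13, a nicotinate carrier in human, stood at 1.21 to 8.31 CPM in uIRI+MSC, 2.22 to 4.32 CPM in uIRI and 183 and 107 CPM in sham (-5.41 ± 0.60 in uIRI against sham, adjusted p = 0.000159 by edgeR). Slc5a8, a monocarboxylate carrier that takes nicotinate, changed by -3.97 ± 0.47, and Slc6a19, a carrier of tryptophan and other neutral amino acids, by -2.69 ± 0.54. Slc7a5, the exchanger that passes tryptophan and kynurenine, rose by 2.21 ± 0.27 (adjusted p = 0.000259 by edgeR), at 17.6 to 25.0 CPM in uIRI against 3.50 and 6.07 CPM in sham. Slc3a2 (-0.55, and 0.11 with library size alone) and Slc29a1 (0.71), named after their values were seen, made up the rest of those called and lost their calls without uIRI 1, uIRI 3, sham 1 or sham 2.

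Among 8 other salvage genes 3 were lower in uIRI than in sham, 1 higher and 4 did not pass, beside 54.6% of all genes called in either direction, a share that the 4 of 8 called here do not exceed. Nmnat1, which makes NAD from the mononucleotide in the nucleus, changed by -1.21 ± 0.19 (adjusted p = 0.00076), Nmnat3 by -0.64 ± 0.18 (adjusted p = 0.015) and the surface nucleotidase gene Nt5e by -1.48 ± 0.27 (adjusted p = 0.00179, all by edgeR). Without sham 1 Nmnat3 no longer passed (-0.55, adjusted p = 0.109), and library size alone put it at 0.03. The nucleotidase gene Nt5c1a rose by 2.34 ± 0.51 (2.97 without sham 1) and had few counts (4 and 2 in sham), at 1.22 to 1.61 CPM in uIRI against 0.389 and 0.184 CPM in sham. The muscle kinase gene Nmrk2 had 0 counts in every library.

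All 6 genes for NADP formation, repair of damaged NAD(P)H and mitochondrial import were lower in uIRI than in sham (median -1.07), beside 26.3% of all genes. Library size alone left 3 of them called, and without sham 1 there were 5, Naxe, named after its values were seen, no longer passing (-0.68, adjusted p = 0.0795 by edgeR). Under library size alone 1989 of all 16576 genes were called lower. The transhydrogenase gene Nnt stood at 73.7 to 78.5 CPM in uIRI+MSC, 41.4 to 58.8 CPM in uIRI and 218 and 225 CPM in sham (-2.12 ± 0.16 in uIRI against sham, adjusted p = 3.39e-05 by edgeR). The mitochondrial NAD kinase gene Nadk2 changed by -1.76 ± 0.17, the mitochondrial NAD carrier gene Slc25a51 by -1.19 ± 0.14 and the cytosolic kinase gene Nadk by -0.94 ± 0.16, the last without a call under library size alone (-0.27, adjusted p = 0.128).

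**Figure D5:**
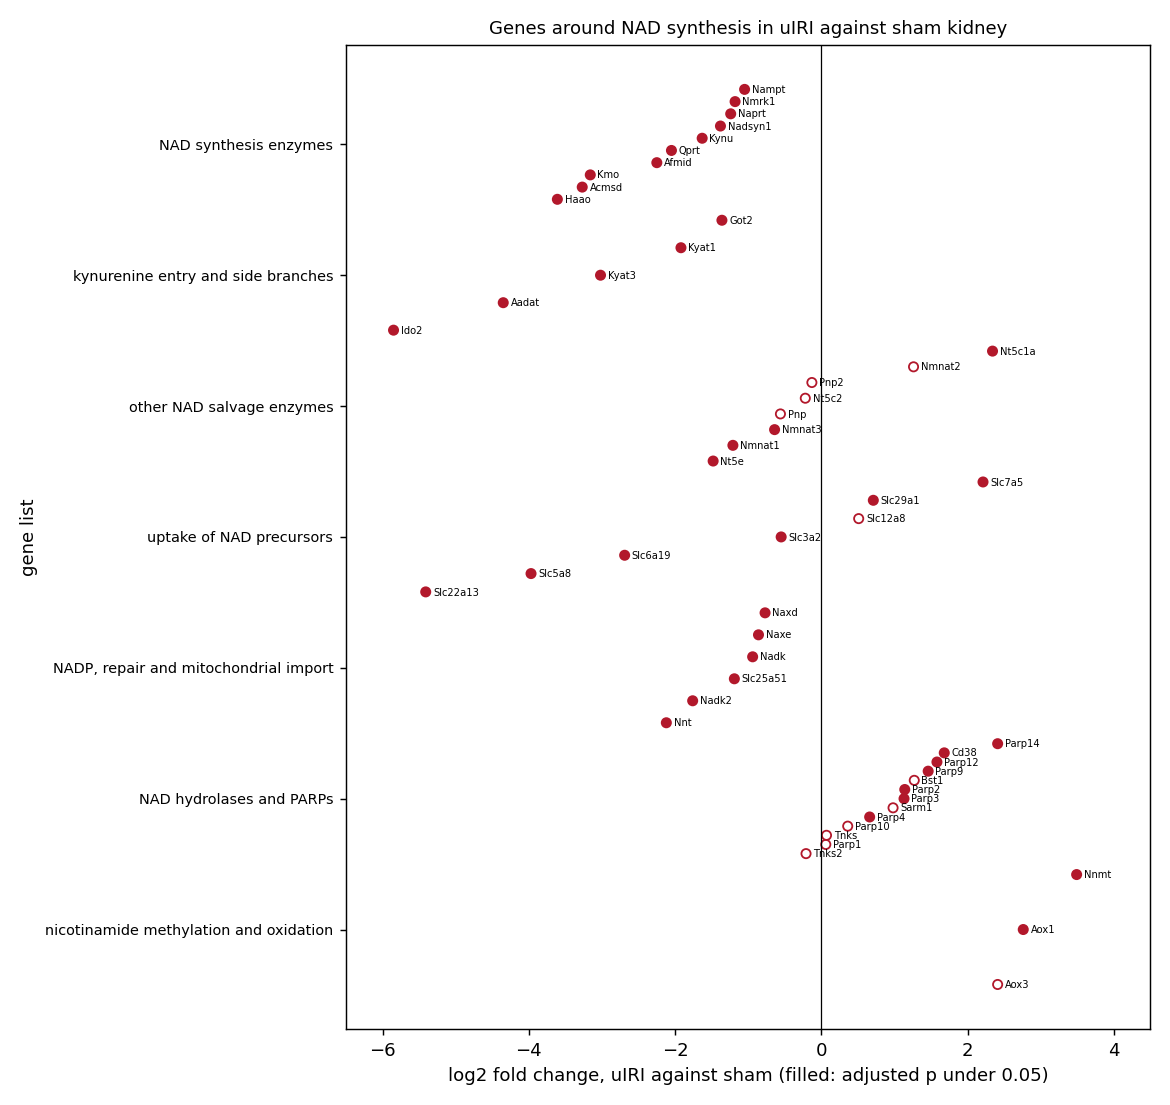
Log2 fold change in uIRI against sham (edgeR) of the 10 NAD synthesis enzyme genes and of the tested genes of 6 further lists. Filled points passed at an adjusted p below 0.05. The synthesis, entry and NADP lists lie below 0 throughout, and the points that passed among NAD hydrolases, PARPs and nicotinamide-clearing genes lie above 0.

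The genes called among those whose products consume NAD or its precursor were higher in uIRI. Of 13 NAD hydrolase and PARP genes 7 were higher in uIRI than in sham, 6 did not pass and 0 were lower (median 1.13), beside 28.3% of all genes called higher. With library size alone 12 were higher, but under that scaling 9044 of all 16576 genes tested were called higher as well. In uIRI+MSC against sham 7 of the 13 were higher as well, beside 22.1% of all genes, and 4 to 7 when each library was left out. Parp14 stood at 104 to 142 CPM in uIRI+MSC, 118 to 246 CPM in uIRI and 27.8 and 36.4 CPM in sham (2.41 ± 0.34 in uIRI against sham, adjusted p = 0.000455 by edgeR). Parp12 rose by 1.58 ± 0.25, Parp2, a DNA-damage PARP, by 1.14 ± 0.13 and Parp3 by 1.13 ± 0.16. The surface NAD hydrolase gene Cd38, named after its values were seen, rose by 1.68 ± 0.33 (adjusted p = 0.00252 by edgeR). Parp1, the main DNA-damage PARP and also named after its values were seen, was at 0.06 (adjusted p = 0.735 by edgeR). Under library size alone it passed as higher (0.73, adjusted p = 0.00264 by edgeR), where the median change of all genes was also 0.73. Nnmt, which methylates nicotinamide and so removes it from salvage, stood at 4.70 to 6.70 CPM in uIRI+MSC, 4.47 to 10.3 CPM in uIRI and 0.583 and 0.736 CPM in sham (3.49 ± 0.47 in uIRI against sham, adjusted p = 0.00037 by edgeR). Aox1, an aldehyde oxidase that oxidises methylated nicotinamide, rose by 2.76 ± 0.64, a value of 1.98 without sham 1 and 4.87 without sham 2. The related oxidase gene Aox3, named after its values were seen, did not pass (2.41 ± 1.33, adjusted p = 0.154 by edgeR).

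In uIRI+MSC against uIRI 0 genes of these 6 lists passed edgeR, with medians of 0.84 for kynurenine entry, 0.39 for uptake, 0.25 for other salvage genes, 0.24 for the NADP list, -0.24 for hydrolases and PARPs and -0.48 for nicotinamide clearing. By DESeq2 Ido2 (2.12, adjusted p = 0.00192), Slc5a8 (1.93, adjusted p = 0.000334), Kyat1 (0.82, adjusted p = 0.0123), Nnt (0.56, adjusted p = 0.0123) and Aadat (1.25, adjusted p = 0.0429) passed as higher.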

How the data were processed

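Libraries were made from total RNA of mouse kidney by isolation of mRNA, fragmentation and adapter ligation, per the labels' protocols. The deposited table holds a count of reads per gene and library, not normalized, per the file headers. It also holds FPKM values, which the authors scaled for gene length and sequencing depth, per the file headers. The submitters' processing notes name, with no roles, StringTie 1.3.3b, HISAT2 2.0.4, Bowtie2 2.2.6, SAMtools 1.9, FastQC 0.10.1, edgeR 3.2.0 and GRCm38. No source used here gives the counter, annotation release, strand setting or treatment of shared reads. Spans of 6 of the 10 genes were identical in GENCODE M21, and the others differed by at most 1173 bases at an end.

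In R 4.3.3 with edgeR 4.0.16, filterByExpr (minimum count 10) chose the genes tested. All 8 libraries were fitted in one quasi-likelihood model with TMM scaling (legacy=TRUE, 5 residual degrees of freedom), and p-values were adjusted by the method of Benjamini and Hochberg over all 16576 genes. Each SE was obtained by dividing the absolute change by the root of its F statistic. DESeq2 1.42.0, limma-voom (limma 3.58.1), other scalings, filters and designs, and leaving out each library were alternatives. Members and lists were chosen with earlier results of these data known. Besides the members, the text names up to 4 genes of each list by p in uIRI against sham, and the genes nearest in profile or position. It also names list genes with too few counts to be tested and single genes of the marker lists. Other list genes are marked as named after their values were seen. Centred profiles use log2 CPM with a prior count of 2 and genes with a mean of at least 5 FPKM in some group. Figures were drawn with matplotlib 3.10.9. Promoter windows of the other 3 genes are not reported here.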

Additional observations from a re-analysis of the deposited data

How the results depend on the processing

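For the 10 genes in uIRI against sham, direction held under every alternative run, and 8 to 10 stayed called as lower when each library was left out. In uIRI+MSC against uIRI the call rests on the tool. DESeq2 gave 1364 genes in all and 6 of the 10, where edgeR gave 0 and 0, and leaving out each library gave 0 to 8 genes in all and 0 of the 10. In uIRI+MSC against sham, leaving out each library gave 3 to 8 of the 10 and 3938 to 6914 genes in all, and library size alone gave 3 of the 10, with Kynu and Nmrk1 reversed to 0.22 and 0.13. Under that scaling 9044 genes were higher and 1989 lower in uIRI against sham (82.0% higher in place of 51.8%), and 7400 higher and 1352 lower in uIRI+MSC against sham (84.6% in place of 52.2%). The replicate numbers are not said to pair libraries across groups, so they were not taken as pairs. Deviations from the group mean had correlations of -0.21 to 0.11 between libraries of the same number. With 2 or 3 libraries in a group these cannot decide whether pairs exist. With a replicate block 7959 genes were called in uIRI against sham, 0 in uIRI+MSC against uIRI and 5753 in uIRI+MSC against sham, where Nadsyn1 lost its call (-0.63, adjusted p = 0.0517). The cause of each shift was not tested. With 2 sham libraries, the fits that leave 1 out assume that the lone library varies like the other groups. Kynu, with 90 to 199 counts per library, is the member most limited by depth.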
